A study of Mus musculus with 24 samples.

Results

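The subject is a module of 39 genes that build, trigger and fuel the contractile apparatus of skeletal muscle fibres, measured in RNA from mouse long bones. The genes were chosen by name, and each was read from the row of the deposited expression table that carried its symbol alone, taking the row with the highest mean where there were several. All 39 of 39 were found, in 42 rows, among 22180 named genes. They comprise 8 thick-filament genes, 9 thin-filament genes, 9 genes of the Z-disc and titin, 7 genes of calcium handling and 6 genes of muscle energy supply. Of these, 14 encode forms typical of fast fibres and 6 encode forms typical of slow fibres.

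The samples were total RNA of tibiae and femur from female mice on standard chow, hybridised to 24 Affymetrix Mouse Gene 2.1 ST arrays. Wild-type mice and HSD2OB-tg mice, which carry 11-beta hydroxysteroid dehydrogenase type 2, an enzyme that inactivates glucocorticoids, as a transgene in osteoblasts, were each sampled at 3, 6, 12 and 18 months of age. Each of the 8 groups held 3 arrays, which the series' design calls biological triplicates without saying whether an array is 1 animal or a pool, so a p-value here measures only the spread between these samples. Tibial marrow was flushed out, per the labels, which do not mention muscle. The promoter that drives the transgene is not given in the sources used here.

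In a muscle fibre, myosin thick filaments pull on actin thin filaments anchored at the Z-disc, and titin spans each contractile unit, the sarcomere. Calcium released from the sarcoplasmic reticulum binds troponin on the thin filament and switches contraction on, and creatine kinase, glycolytic enzymes and myoglobin keep ATP supplied. Fast and slow fibres use different isoforms of myosin, troponin and other sarcomere proteins. Skeletal muscle inserts on long bones through tendon and periosteum, while the bone-forming cells themselves are not known for these sarcomere isoforms.

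Since the members moved together on these arrays, as described below, the sequences upstream of their start sites are shown for 4 of them: a fast myosin heavy chain, the muscle creatine kinase and a pair of slow-fibre genes. RefSeq promoters of build GRCm38.p6 were matched for 30 of the 39 members, and the 250 bases before the first listed start were searched. The search used the E-box CAGCTG, which reads the same on both strands and is a binding sequence of muscle regulatory factors, the MEF2 motif and the CArG box on both strands, and TATAAA on the given strand. A MEF2 match can contain TATAAA, but no pair of matches shared a base in the 4 sequences. Capitals mark the matches, and each sequence runs 5′ to 3′ on the strand of its gene.
Myh4, chr11:67237562-67237811, plus strand: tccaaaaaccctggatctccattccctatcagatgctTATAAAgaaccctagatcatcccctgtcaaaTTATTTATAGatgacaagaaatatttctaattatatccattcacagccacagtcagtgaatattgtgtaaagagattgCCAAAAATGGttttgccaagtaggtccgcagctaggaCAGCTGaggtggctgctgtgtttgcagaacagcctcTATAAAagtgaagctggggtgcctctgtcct
Ckm, chr7:19410844-19411093, plus strand: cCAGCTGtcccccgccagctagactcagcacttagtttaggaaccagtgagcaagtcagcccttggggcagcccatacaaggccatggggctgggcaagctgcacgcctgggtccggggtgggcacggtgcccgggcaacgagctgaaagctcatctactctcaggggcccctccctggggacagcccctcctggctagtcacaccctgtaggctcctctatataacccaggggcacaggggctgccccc
Tnni1, chr1:135799171-135799420, plus strand: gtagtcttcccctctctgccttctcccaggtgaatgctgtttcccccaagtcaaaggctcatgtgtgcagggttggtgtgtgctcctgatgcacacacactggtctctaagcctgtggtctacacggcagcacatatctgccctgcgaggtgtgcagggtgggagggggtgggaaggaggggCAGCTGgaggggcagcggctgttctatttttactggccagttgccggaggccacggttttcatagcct
Myoz2, chr3:123034988-123035237, minus strand: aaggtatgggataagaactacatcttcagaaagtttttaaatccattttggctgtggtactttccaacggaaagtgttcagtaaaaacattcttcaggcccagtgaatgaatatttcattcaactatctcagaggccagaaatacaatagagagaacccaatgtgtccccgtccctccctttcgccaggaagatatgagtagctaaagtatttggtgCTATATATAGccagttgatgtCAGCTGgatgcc
Myh4 held all 4 motifs, with TATAAA at -213 to -208 and again at -31 to -26, MEF2 at -182 to -173, CArG at -104 to -95 and the E-box at -67 to -62, counted back from the start. Ckm held the E-box at -249 to -244. Tnni1 held the E-box at -68 to -63, and Myoz2 held MEF2 at -33 to -24 and the E-box at -12 to -7. Over the 30 matched members the E-box was found in 15 (50%), against 12.8% of 27025 genes searched over the same length. MEF2 was found in 7 (23.3%, against 3.01% of all genes), CArG in 3 (10%, against 1.4%) and TATAAA in 4 (13.3%, against 8.12%). The E-box share was 50% among the 10 matched fast-fibre members and 50% among the 6 slow-fibre members. These matches describe letters in the reference genome and were not measured in these samples.

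All levels below are deposited log2 values, and differences are log2 estimates from limma unless stated otherwise. Bone was present on every array: Col1a1 and Ibsp, matrix genes of bone, had levels of 10.83 to 13.22 and 9.58 to 12.02 over the 24 arrays. Hsd11b2, the gene of the transgene's enzyme, had a level of 3.38 to 3.98 (median 3.62) on the 12 wild-type arrays and of 3.92 to 5.52 (median 4.78) on the 12 transgenic arrays, overlapping at a single pair of arrays of different ages. Each sample's code has a prefix, HEN513 on 13 arrays, HEN679 on 6 and HEN753 on 5, of unstated meaning and spread unevenly over the groups, so the fit holds a term for it. A set of 4 arrays stood apart, namely wild-type 6-month replicate 2, transgenic 6-month replicates 1 and 2 and transgenic 12-month replicate 3, all of prefix HEN513. On them Alb, the liver's albumin gene, had a level of 9.17 to 9.89, against 2.54 to 6.13 on the other 20 arrays. The mean of 14 hepatocyte genes was 4.87 to 5.79 on them against 2.33 to 3.35, and that of 7 kidney tubule genes 3.08 to 3.70 against 1.94 to 2.82. Both lists were chosen after the values were seen. Among the other 20, wild-type 12-month replicates 1 and 2 and transgenic 12-month replicates 1 and 2 stood above the rest. Their Alb levels were 5.36 to 6.13 and their hepatocyte means 3.17 to 3.35, against at most 4.10 and 2.74 on the rest. They are not in the set of 4 and stay in when it is left out. Results that rest on the 4 arrays are given with and without them.

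The members' mean level was lowest at 3 months and varied widely between arrays of one group. At 3 months the 3 wild-type arrays had mean levels over the 39 genes of 4.39, 6.58 and 6.77, and the 3 transgenic arrays 4.91, 7.04 and 7.86. At 6 months the wild-type levels were 8.79, 9.57 and 8.63 and the transgenic levels 8.30, 9.76 and 8.45. The 6-month arrays were all above the 3-month arrays, in both genotypes. At 12 months the wild-type levels were 8.46, 5.79 and 9.17 and the transgenic levels 6.97, 8.93 and 8.35. At 18 months they were 5.81, 9.58 and 9.57 in wild type and 7.80, 9.09 and 9.20 in transgenic bone. Wild-type 12-month replicate 2 and replicate 1 of transgenic 12-month, wild-type 18-month and transgenic 18-month bone thus lay within the 3-month range. Their group mates lay within the 6-month range. These low arrays all carry the prefix HEN679, as do wild-type 12-month replicates 1 and 3 (8.46 and 9.17). No array at 3 or 6 months has this prefix. The 12- and 18-month arrays of prefix HEN513 had levels of 8.35 or more. What part the prefix has in the low levels was not tested.

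As group means over 3 arrays each with SD, the members stood at 5.91 ± 1.32 in 3-month wild type and 6.60 ± 1.52 in 3-month transgenic bone, and at 8.99 ± 0.50 and 8.84 ± 0.80 in the same genotypes at 6 months. Older groups had 7.81 ± 1.78 and 8.09 ± 1.01 at 12 months and 8.32 ± 2.17 and 8.70 ± 0.78 at 18 months, wild type first, so 18-month wild type was the widest group. From the lowest array to the highest the mean level spanned 5.38, which is 41.5-fold, and the pooled SD within groups was 1.35. In bulk RNA, fewer muscle cells in a sample and less of this RNA per muscle cell cannot be told apart.

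**Figure D1:**
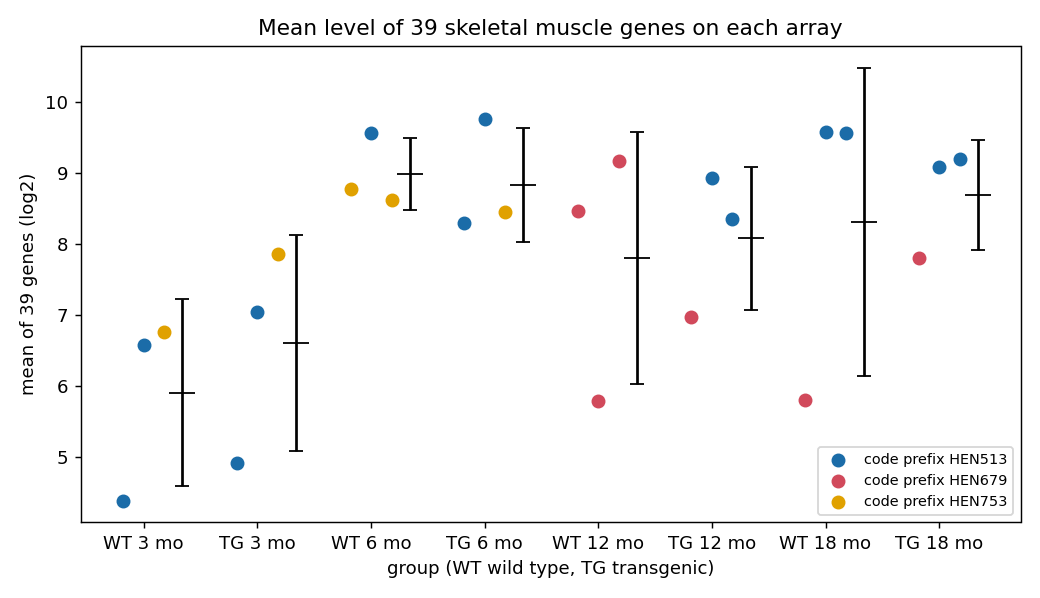
Mean level (log2) of the 39 skeletal muscle genes on each of the 24 arrays, by group on the horizontal axis (WT wild type, TG transgenic, age in months), with points coloured by code prefix and the bar beside each group showing mean and SD of its 3 arrays. The 6 arrays at 6 months lie between 8.30 and 9.76, above all 6 at 3 months (4.39 to 7.86), and single arrays at 12 and 18 months fall to 5.79 and 5.81.

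The members varied as a block. Wild-type 3-month replicate 1 had the lowest level of 32 of the 39 members, and a 3-month array had the lowest level of 38. The highest level lay in wild-type 18-month replicate 3 for 14 members, in wild-type 6-month replicate 2 for 11, in transgenic 6-month replicate 2 for 11 and in wild-type 18-month replicate 2 for 3. The span of a member over the 24 arrays ran from 3.81 (Pgam2) to 7.24 (Myh1), with a median of 5.69. Over all 741 pairs of members the correlation across the 24 arrays had a median Pearson r of 0.967 and a range of 0.665 to 0.998, as a description of arrays that share libraries and groups. Ryr1, the calcium release channel, followed the mean of the other 38 members most closely (r = 0.996), and 3 slow troponin genes least closely, Tnnt1 at 0.81, Tnni1 at 0.82 and Tnnc1 at 0.83.

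**Figure D2:**
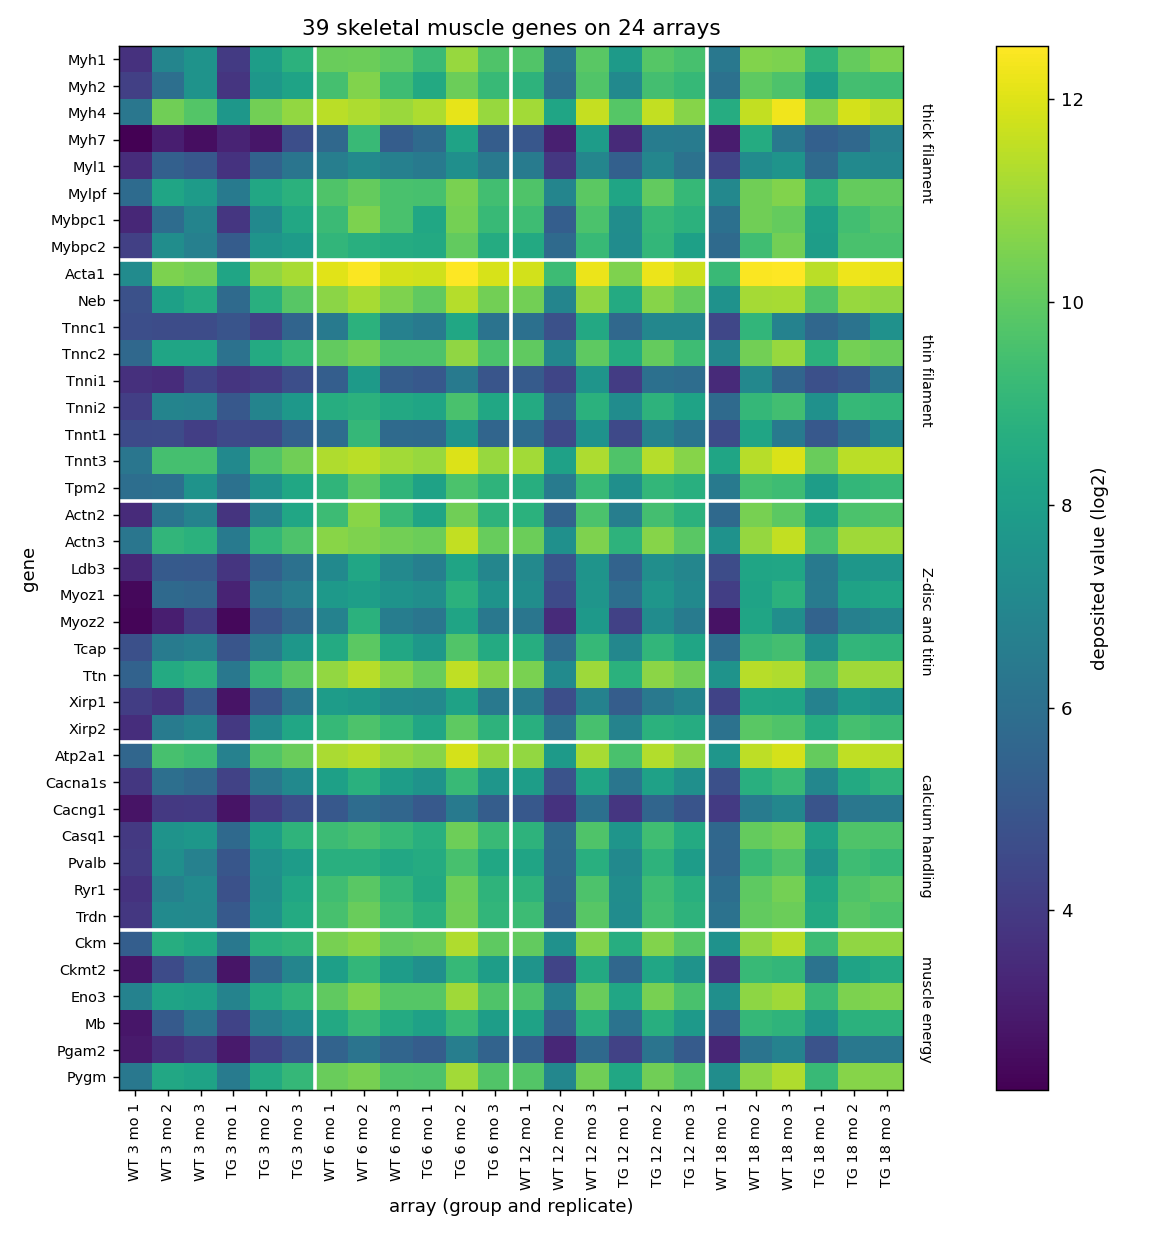
Deposited values (log2, colour) of the 39 genes in rows, grouped by role, on the 24 arrays in columns, labelled by group and replicate. Whole columns are dark or bright together: wild-type 3-month replicate 1, with the lowest level of 32 genes, is the darkest, and wild-type 12-month replicate 2 and wild-type 18-month replicate 1 stand out among their neighbours.

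Among the thick-filament genes, Myh4 encodes the myosin heavy chain of the fastest fibres. Its level at 3 months was 6.31, 10.29 and 9.77 in wild type and 7.70, 10.31 and 10.85 in transgenic bone. At 6 months it was 11.47, 11.26 and 10.98 in wild type and 11.24, 12.13 and 10.93 in transgenic bone. All 6-month arrays were above all 3-month arrays, the nearest pair being 10.93 and 10.85. At 12 months the level was 11.08, 8.28 and 11.62 in wild type and 9.79, 11.58 and 10.65 in transgenic bone. At 18 months it was 8.61, 11.60 and 12.31 in wild type and 10.67, 11.88 and 11.50 in transgenic bone. The older groups overlapped the 3-month arrays through wild-type 12-month replicate 2, wild-type 18-month replicate 1 and others.

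Myh7, the slow myosin heavy chain, a form also found in heart, was low on every 3-month array. It was 2.23, 3.08 and 2.61 in wild type and 3.25, 2.87 and 4.70 in transgenic bone. At 6 months its level was 5.70, 9.22 and 5.28 in wild type and 5.77, 8.20 and 5.25 in transgenic bone. In each genotype the second replicate was far above its group mates. At 12 months it was 5.03, 3.13 and 7.94 in wild type and 3.47, 6.54 and 6.52 in transgenic bone. At 18 months it was 3.00, 8.55 and 6.34 in wild type and 5.39, 5.71 and 6.75 in transgenic bone. Its spread at the later ages reached from the 3-month range to nearly the 6-month maximum.

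The other thick-filament members followed the block. Myh1, a second fast myosin heavy chain, spanned 3.71 to 8.83 (median 7.23) over the 6 arrays at 3 months, and 9.25 to 10.95 (median 10.06) at 6 months. Mybpc1, the slow form of a protein that binds myosin, spanned 3.37 to 8.40 (median 6.36) at 3 months and 8.35 to 10.49 (median 9.41) at 6 months. Only Mybpc1 among the 8 overlapped between those ages. Myl1, a fast essential light chain, had the narrowest span of the 8, with 3.51 to 6.24 (median 5.22) at 3 months and 6.38 to 7.35 (median 6.69) at 6 months.

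Of the thin-filament genes, Acta1, the actin of adult skeletal muscle, had a level of 7.21 to 11.17 (median 10.42) at 3 months and 11.77 to 12.52 (median 11.99) at 6 months. Neb, nebulin, which runs along the thin filament, had the widest span of the 9, with 4.79 to 9.87 (median 8.31) at 3 months and 9.99 to 11.38 (median 10.63) at 6 months. Both genes were higher on all 6-month arrays than on all 3-month arrays. The slow troponin subunits varied little at 3 months, with Tnni1 at 3.54 to 4.70 (median 3.95) and Tnnc1 at 4.21 to 5.56 (median 4.65). Without detection calls, a narrow spread this near the array medians of 3.55 to 3.64 cannot be read as steady expression. At 6 months Tnni1 reached 4.95 to 7.84 (median 5.28) and Tnnc1 6.14 to 8.83 (median 6.61), with the top value far above the median. The fast troponin subunit Tnni2 moved from 4.15 to 7.72 (median 6.83) at 3 months to 8.29 to 9.57 (median 8.54) at 6 months. Tpm2, a tropomyosin, overlapped between these ages, at 5.95 to 8.35 (median 6.75) and 8.17 to 9.92 (median 8.96).

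At the Z-disc, Actn2, the alpha-actinin that crosslinks actin there, spanned 3.50 to 8.33 (median 6.48) at 3 months and 8.26 to 10.68 (median 9.23) at 6 months. Xirp1, an actin-binding repeat protein of muscle attachment sites, had a level of 2.79 to 6.27 (median 4.53) at 3 months and 6.40 to 8.15 (median 7.46) at 6 months. Actn2 overlapped between the ages at a single pair of arrays, and Xirp1 did not overlap. At 18 months Xirp1 lay at 4.29 to 8.30 (median 7.62). Ttn, titin itself, had 5.48 to 9.92 (median 8.68) at 3 months and 10.13 to 11.54 (median 10.79) at 6 months. Myoz2, a calcineurin-binding Z-disc protein of slow fibres, went from 2.36 to 5.72 (median 3.60) to 6.25 to 8.81 (median 6.69).

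Among calcium-handling genes, Ryr1 had a level of 3.72 to 8.30 (median 6.96) at 3 months and 8.49 to 10.26 (median 9.22) at 6 months. Cacng1, a subunit of the voltage sensor in the muscle membrane, had 2.76 to 4.70 (median 3.95) at 3 months, 5.06 to 6.41 (median 5.46) at 6 months and 3.98 to 7.00 (median 6.39) at 18 months. Casq1, the calcium store protein of fast fibres, was one of the 4 members that overlapped, with 3.92 to 8.94 (median 7.59) at 3 months and 8.72 to 10.24 (median 9.26) at 6 months. Atp2a1, the calcium pump of fast fibres, did not overlap, at 5.64 to 10.16 (median 9.43) and 10.67 to 11.88 (median 11.06).

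Of the energy genes, Ckmt2, the mitochondrial creatine kinase of muscle, spanned 2.79 to 6.92 (median 5.04) at 3 months and 7.39 to 9.11 (median 7.99) at 6 months. Mb, myoglobin, went from 2.86 to 7.24 (median 5.64) to 7.96 to 9.21 (median 8.50). Pgam2, the muscle phosphoglycerate mutase, had the narrowest span of all members, 2.98 to 5.04 (median 3.82) at 3 months and 5.25 to 6.65 (median 5.55) at 6 months. None of the 6 energy genes overlapped between the 6 arrays at 3 months and the 6 at 6 months.

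The first comparison asks how the members differed between 6 and 3 months, averaged over both genotypes. In limma, 37 of 39 were higher at 6 months at an adjusted p under 0.05, where 7.19% of all genes were called, 2.5% higher and 4.68% lower. The median difference was 2.52, or 5.74-fold. Myh7 had the highest difference, 3.61 ± 0.80 (SE, adjusted p = 0.00829), followed by Mybpc1 (3.46 ± 0.79), Actn2 (3.40 ± 0.78), Ckmt2 (3.39 ± 0.72) and Myoz2 (3.38 ± 0.73). Myh1 (3.36 ± 0.78), Myh2 (3.17 ± 0.72), a fast myosin of oxidative fibres, Mb (3.09 ± 0.60), Xirp2 (2.97 ± 0.69) and Neb (2.90 ± 0.73) completed the 10 highest. Xirp1 had the lowest adjusted p of the members, 0.00292, with a difference of 2.82 ± 0.54. Myl1 had the smallest difference of the 39, 1.81 ± 0.50 (adjusted p = 0.0345).

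The 2 members that did not pass were Myh4, at 2.03 ± 0.68 (adjusted p = 0.0875), and Casq1, at 2.25 ± 0.72 (adjusted p = 0.0695). By role, the rise passed in 7 of 8 thick-filament genes (median difference 2.76), 9 of 9 thin-filament genes (2.28), 9 of 9 Z-disc genes (2.75), 6 of 7 calcium genes (2.52) and 6 of 6 energy genes (2.45). In 35 of 39 members every 6-month array was above every 3-month array, which held for 1.52% of all genes.

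**Figure D3:**
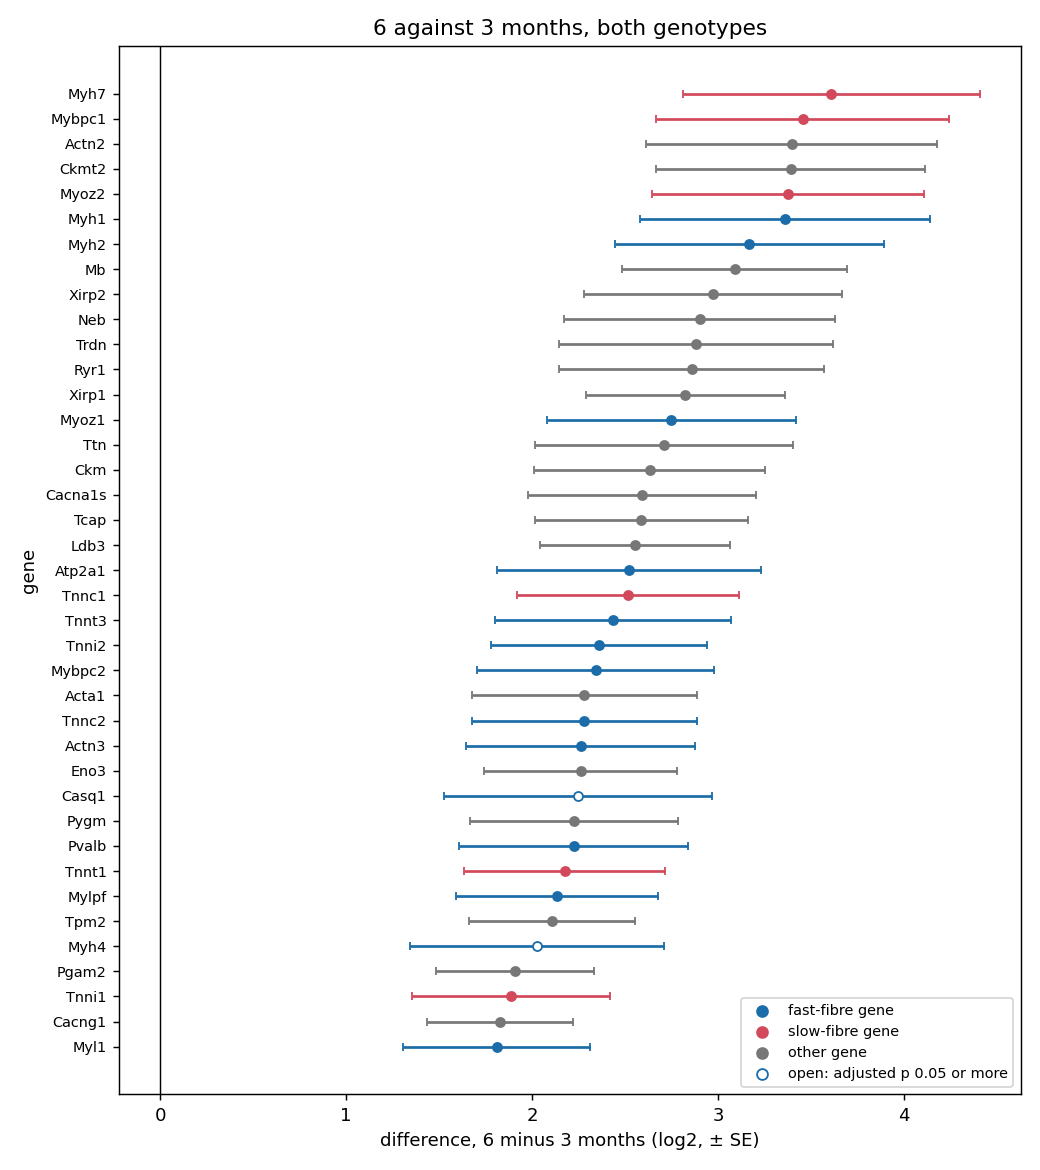
Difference of each of the 39 genes between 6 and 3 months over both genotypes (horizontal, log2, limma estimate with bars of ± 1 SE), ordered by size, in blue for fast-fibre, red for slow-fibre and grey for other genes. All 39 estimates are above 0, from 1.81 (Myl1) to 3.61 (Myh7), and the open points, Casq1 and Myh4, did not pass an adjusted p under 0.05.

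Of the 6 arrays at 6 months, 3 belonged to the set with hepatocyte genes, and these were all the 6-month arrays of prefix HEN513. Cardiac genes were higher on the same 3 arrays. Myh6, a cardiac myosin heavy chain, had a level of 6.05, 4.31 and 5.80 there, against 2.40 to 3.48 on the 20 arrays outside the set. Nppa, an atrial hormone, had 5.18, 5.22 and 5.60, against 3.00 to 3.57. Transgenic 12-month replicate 3 had hepatocyte genes but a Myh6 level of 2.90 and an Nppa level of 3.16. Its cardiac genes were mixed, since Tnnt2 (5.51) and Tnni3 (5.20) were above the highest of the 20 arrays (5.21 and 4.91). Its mean of the 8 cardiac genes, 3.57, lay within their range of 2.88 to 3.65. In the comparison of 6 with 3 months, 5 of 8 cardiac genes and 6 of 14 hepatocyte genes were called higher. Myh7 had its 6-month levels of 9.22, 5.77 and 8.20 on these arrays, against 5.25 to 5.70 on the other 3. Outside the set, Myh7 was 8.55 on wild-type 18-month replicate 2 (Myh6 3.48, Nppa 3.21) and 7.94 on wild-type 12-month replicate 3 (Myh6 3.19, Nppa 3.39). The mean of the 8 cardiac genes was 3.65 on the first of these, the highest of the 20 arrays outside the set, and 3.24 on the other. What part cardiac RNA has in the Myh7 level was not tested.

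Without the 4 arrays the limma count for 6 against 3 months fell to 0 of 39, with 0 at an unadjusted p under 0.05, a lowest adjusted p of 0.687 and a mean difference of 1.27 in place of 2.59. All 39 differences stayed above 0, and 1 gene of the 22180 was called. Without them and the prefix term the mean difference was 2.32, with 0 members called and a lowest adjusted p of 0.308. In the values themselves, the 3 remaining 6-month arrays had a mean member level of 8.45 to 8.79 against 4.39 to 7.86 at 3 months, and 39 of 39 members did not overlap, as did 3.22% of all genes. Within prefix HEN753 the mean level was 8.45 to 8.79 on 3 arrays at 6 months and 6.77 to 7.86 on 2 at 3 months, a plain difference of 1.31. Within prefix HEN513 it was 8.30 to 9.76 on 3 arrays and 4.39 to 7.04 on 4, a plain difference of 3.48. In both prefixes 39 of 39 members did not overlap, against 11.9% of all genes in HEN753 and 7.92% in HEN513. Single arrays also decided how many members were called, which was 24 without wild-type 3-month replicate 1, 3 without wild-type 6-month replicate 2 and 18 without transgenic 6-month replicate 2.

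**Figure D4:**
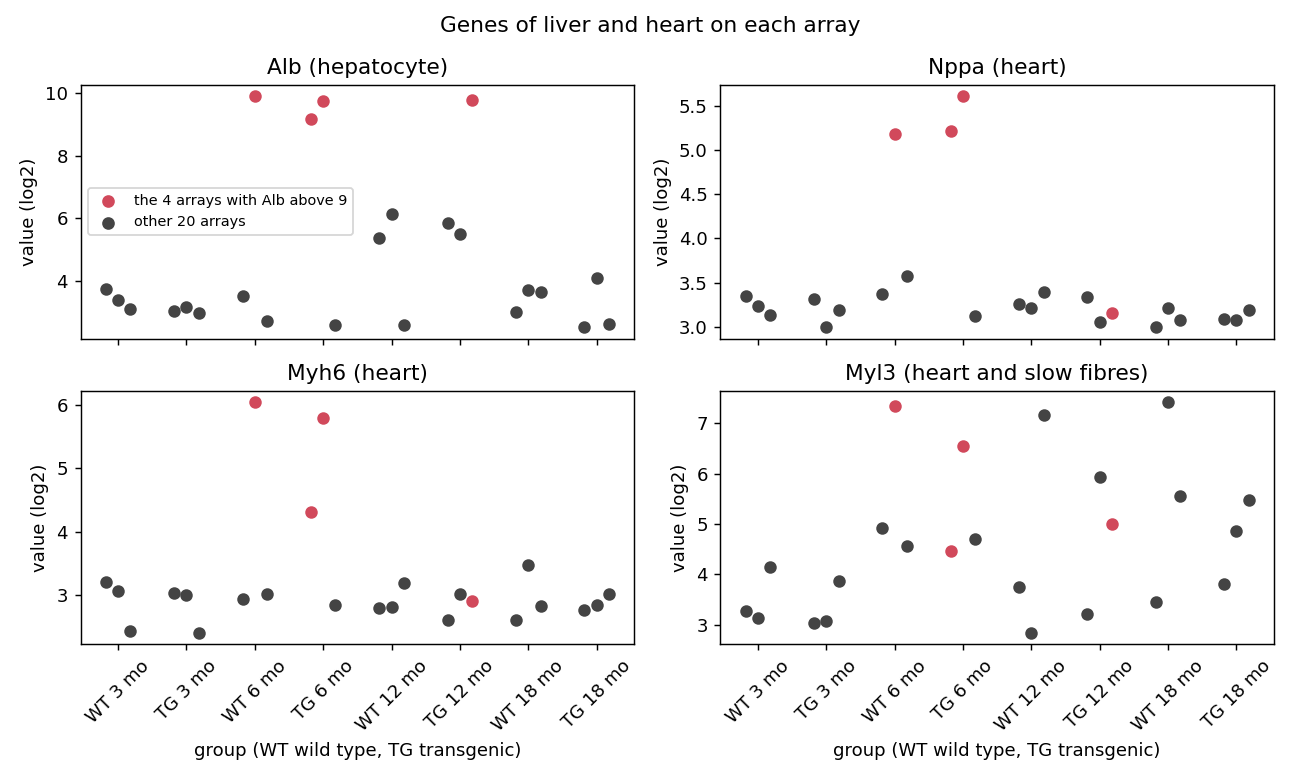
Levels (log2, each panel with its own axis not starting at 0) of Alb, Nppa, Myh6 and Myl3, a light chain of heart and slow fibres, on the 24 arrays by group, with the 4 arrays set apart in red and the other 20 in dark grey. Alb is 9.17 to 9.89 on the red arrays; Nppa and Myh6 are high on 3 of them and not on transgenic 12-month replicate 3, and Myl3 is also high on dark arrays, reaching 7.41.

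Within each genotype the same age step passed for no member. In wild type the median difference between 6 and 3 months was 2.81, with 39 of 39 members at an unadjusted p under 0.05, 0 called by limma (0.419% of all genes were, 0.0902% higher and 0.329% lower) and a lowest adjusted p of 0.057, for Mb. In transgenic bone the median was 2.23, with 35 at an unadjusted p under 0.05, 0 called (2.92% of all genes were, 0.257% higher and 2.66% lower) and a lowest adjusted p of 0.0808, for Xirp1. Without the 4 arrays set apart, 2 of which are transgenic at 6 months, the mean difference went from 2.24 to 0.79 in transgenic bone and from 2.94 to 1.74 in wild type, with 0 called in both.

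The members were also higher at 12 and 18 months than at 3 months, in comparisons that share the 3-month arrays with the one above. At 12 against 3 months over both genotypes, 36 of 39 were called higher by limma (5.37% of all genes called, 1.86% higher and 3.51% lower), with a median difference of 3.23. The exceptions were Myh4, Casq1 and Tnnt1. Ckmt2 had a difference of 4.71 ± 0.95 (adjusted p = 0.00655), Myh1 of 4.37 ± 1.03, Actn2 of 4.36 ± 1.03 and Mybpc1 of 4.29 ± 1.04. All 3 wild-type arrays at 12 months carry the prefix HEN679. With no prefix term 0 of 39 were called and the mean difference was 1.69 in place of 3.34, and with a term for the replicate number (replicate block) 0 were called, at a lowest adjusted p of 0.12. The count was 9 without wild-type 3-month replicate 1, 17 without transgenic 3-month replicate 1, 22 without either wild-type 12-month replicate 1 or replicate 3, and 8 without transgenic 12-month replicate 2.

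At 18 against 3 months, 37 of 39 were called higher (6.92% of all genes called, 3.24% higher and 3.68% lower), with a median difference of 3.11. The slow troponin genes Tnnt1 (1.98 ± 0.61, adjusted p = 0.058) and Tnni1 (1.81 ± 0.60, adjusted p = 0.0795) did not pass. Actn2 had a difference of 4.24 ± 0.88, Myh1 of 4.19 ± 0.87 and Mybpc1 of 4.16 ± 0.88. Cacng1 had the lowest adjusted p, 0.00106, with a difference of 2.87 ± 0.44. With no prefix term 8 members were called, and with the replicate block 11. Without wild-type 3-month replicate 1 the count was 23. At 12 and at 18 months, 0 of 39 members had every array above all 3-month arrays, where 1.24% and 0.843% of all genes did.

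In wild type alone, 9 of 39 members were called higher at 18 than at 3 months (2.67% of all genes called, 1.4% higher and 1.27% lower), with a median difference of 3.26. They were Mybpc1 (4.58 ± 1.17), Ckmt2, Mb, Xirp2, Xirp1 (3.52 ± 0.80), Ldb3, a Z-disc scaffold protein, Cacng1 (2.98 ± 0.59), Tpm2 and Pgam2. Of the 14 fast-fibre genes 0 were called. In transgenic bone 2 of 39 were called (1.62% of all genes called, 0.415% higher and 1.21% lower), Xirp1 at 3.55 ± 0.80 and Cacng1 at 2.76 ± 0.59, with a median over the 39 of 2.98. The difference between the genotypes' age differences was called for 0 of 39 members by limma, with 0 at an unadjusted p under 0.05 and a median of -0.25, where 0.0% of all genes were called. Both genotypes' counts were 0 with no prefix term and 0 with the replicate block, and 1 and 0 with every row of the table tested. The wild-type count was 0 without wild-type 3-month replicate 1, or without replicate 2 or 3 of wild type at 18 months, 1 without wild-type 3-month replicate 2, and 23 without wild-type 18-month replicate 1. The transgenic count was 0 without replicate 1 or 2 of transgenic 3 months or replicate 2 or 3 of transgenic 18 months, and 1 without transgenic 18-month replicate 1.

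No member was called between 12 and 6 months (0.0% of all genes called) or between 18 and 12 months (0.0%). The median differences were 0.77 and -0.16, with 0 and 0 members at an unadjusted p under 0.05 in limma. The sign of the first turned with the prefix term, since the mean difference between 12 and 6 months was 0.75 with it and -0.97 with none.

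The second question of the design is whether the transgene altered these genes. Limma called 0 of 39 members between transgenic and wild-type bone at each of the 4 ages, where 0.0% of all genes were called, and 0 of 39 in the mean over ages, where 0.00451% were. At an unadjusted p under 0.05 the members numbered 0 at 3, 6 and 18 months and 0 in the mean over ages, and 1 (Cacng1) at 12 months. Averaged over ages the median difference was 0.00, with 20 members above 0 and 19 below.

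The sign of the genotype difference turned with single arrays at 3, 6 and 18 months and with the prefix term at 12 months. At 3 months all 39 were above 0, from 0.25 (Tnnc1) to 1.34 (Mb), with a median of 0.71. That mean difference of 0.69 became -0.04 without wild-type 3-month replicate 1 and 1.52 without transgenic 3-month replicate 1. At 6 months 24 were above 0, with a median of 0.07. At 12 months all 39 were below 0, with a median of -1.22, but the mean of -1.23 was 0.28 with no prefix term, and the prefixes are not balanced between genotypes at that age. At 18 months 36 were above 0, with a median of 0.42, and the mean ran from -0.37 to 0.65 as arrays were left out in turn.

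The fast-fibre and slow-fibre members tracked each other with a visible gap on some arrays. The mean level of the 14 fast-fibre genes spanned 4.72 to 10.39 over the arrays and that of the 6 slow-fibre genes 3.48 to 9.05. Across the 24 arrays the Pearson r between them was 0.881 and Spearman's rho 0.924, and r was 0.877 without the 2 arrays farthest from the median. Within groups, with each group's mean removed, r was 0.808 and rho 0.802. Pairs of fast-fibre genes had a median r of 0.985 (91 pairs), pairs of slow-fibre genes 0.938 (15 pairs) and mixed pairs 0.794 (84 pairs). Mixed pairs ranged from 0.665 to 0.989, since the slow-fibre genes were not alike. Mybpc1 (0.988) and Myoz2 (0.969) followed the mean of the other members more closely than Myh7 (0.875), Tnnc1 (0.826), Tnni1 (0.818) and Tnnt1 (0.810).

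To compare changes and not levels of different probe sets, each mean was centred on its own average over the 24 arrays. The slow-fibre mean then exceeded the fast-fibre mean most on wild-type 6-month replicate 2 (by 1.80), wild-type 3-month replicate 1 (1.28), wild-type 18-month replicate 2 (1.12) and wild-type 12-month replicate 3 (1.02). It fell furthest below on wild-type 3-month replicate 2 (-1.06), transgenic 3-month replicate 2 (-0.92), transgenic 18-month replicate 2 (-0.90) and wild-type 18-month replicate 3 (-0.78). Wild-type 3-month replicate 1 had the lowest means of the 24 arrays, 3.48 for slow-fibre and 4.72 for fast-fibre genes. Its slow-fibre mean was under the array medians of 3.55 to 3.64. Without detection calls, a gap at such low levels cannot be read as more slow-fibre RNA. The extremes at both ends included arrays of one group. In wild type at 18 months, replicates 2 and 3 had nearly equal member means, 9.58 and 9.57. Their fast-fibre means were 9.97 and 10.39, and their slow-fibre means 8.57 and 7.09.

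**Figure D5:**
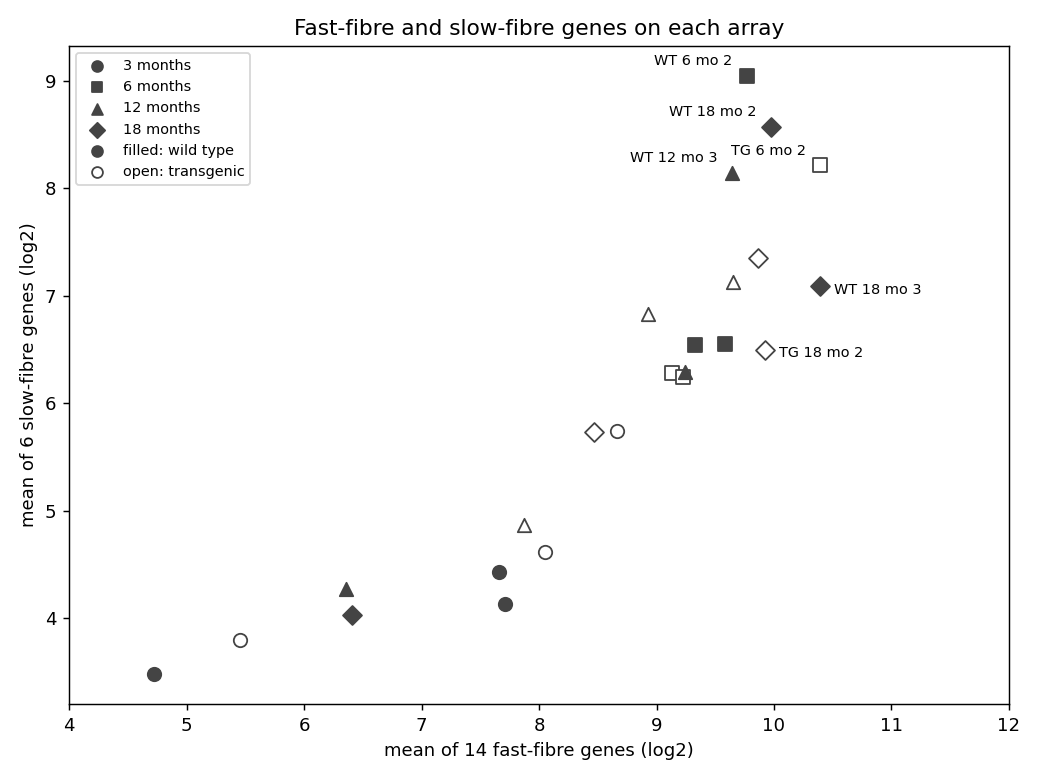
Mean level of the 6 slow-fibre genes (vertical, log2) against that of the 14 fast-fibre genes (horizontal, log2), 1 point per array, with shape for age and filled points for wild type. The arrays rise together (r = 0.881), and wild-type 18-month replicates 2 and 3 share a similar fast-fibre mean (9.97 and 10.39) with slow-fibre means of 8.57 and 7.09.

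Between 6 and 3 months, 12 of 14 fast-fibre genes (median difference 2.31) and 6 of 6 slow-fibre genes (2.95) were called higher, and at 18 against 3 months 14 of 14 (2.96) and 4 of 6 (2.85). At 6 months the transgenic minus wild-type differences were above 0 for 13 of 14 fast-fibre genes (median 0.26) and for 0 of 6 slow-fibre genes (median -0.60), with none called. That split rested on arrays with hepatocyte and cardiac genes in both genotypes, wild-type 6-month replicate 2 and transgenic 6-month replicates 1 and 2. Without the 4 arrays set apart, 0 of 14 fast-fibre genes (median -0.23) and 0 of 6 slow-fibre genes (median -0.28) were above 0, from 2 wild-type arrays and 1 transgenic array. Between 6 and 3 months the medians without the 4 arrays were 1.18 for the fast-fibre and 1.45 for the slow-fibre genes, and 2.20 and 1.93 with no prefix term either, with 0 called in each. The slow-fibre mean at 3 months was 3.48 to 5.74 (median 4.28), near the array medians of 3.55 to 3.64, which limits how its age differences can be read. Whether fast and slow members differed in these contrasts was not tested.

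Genes outside the module that followed the members' mean within groups, with the group means removed, included many known muscle genes. Of 22141 other genes, 1273 (5.75%) had an r over 0.5, 119 had an r over 0.9, and 881 (3.98%) had an r under -0.5. By this within-group r, the 10 most alike were Eef1a2, Nrap, Myom2, Myot, Klhl41, Klhl31, Cmya5, Des, Ppp1r3a and Hjv, with r from 0.993 to 0.986 over the 24 arrays. Nrap, Myom2 and Myot are sarcomere proteins and Des is the intermediate filament of muscle. The genes that ran most against them were Treh (-0.82), Vmn1r149 (-0.80) and Poteg (-0.79). Their median levels of 1.47, 1.27 and 1.73 were under the array medians of 3.55 to 3.64, so they may not reflect expressed genes. Tifab came next (-0.78), with a median level of 6.69. The first principal component of the within-group values held 20.5% of their variance, correlated with the members' mean at a size of 0.955, and had all 39 members among its 200 highest loadings.

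Other lists were read in the same comparison of 6 with 3 months over all 24 arrays; without the 4 arrays with hepatocyte genes, 1 gene in all was called. Of 21 further sarcomere and triad genes, 17 were called higher (median difference 1.68), among them Myot at 3.49, Lmod2 at 2.95 and Pdlim3 at 2.92. Of 10 further genes of slow or cardiac-shared muscle, 5 were called higher, with Csrp3 at 3.44 and Ankrd2 at 2.85. In the dystrophin and costamere list 3 of 10 were called higher, Flnc (2.76), Des (2.61) and Dmd (2.13). Of 7 atrophy genes 4 were called higher, the ubiquitin ligases Trim63 (2.04) and Fbxo32 (1.42), the growth inhibitor Mstn (1.75) and Klf15 (1.10).

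Genes of muscle precursors and of the nerve contact mostly did not pass. Among 9 muscle regulatory and satellite cell genes 1 was called, Myf6 (2.49, adjusted p = 0.00462), the regulatory factor of mature fibres. The satellite cell gene Pax7 had a difference of 0.22 and a within-group r of 0.00 with the members' mean. The mean of this list, however, had a within-group r of 0.87 with the members' mean, and its genes a median r of 0.28. Of 9 neuromuscular junction genes 1 was called, Musk at 1.09, and of 3 developmental myosin genes 1, Myh8 at 0.59, the perinatal myosin heavy chain. The neuromuscular junction list mean had a within-group r of 0.81, and its genes a median r of 0.58. For the developmental myosins these values were 0.81 and 0.75.

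Oxidative phosphorylation moved in part with the members. The list of 19 genes includes Idh3a, an enzyme of the citric acid cycle, which was called higher (0.66). Of the 19 genes 12 were called higher at 6 than at 3 months, with a median difference of 0.49. The muscle isoforms Cox8b (2.74), Cox6a2 (2.34) and Cox7a1 (2.19) led. The mean of the 19 genes had a within-group r of 0.89 with the members' mean. The tendon list had an r of 0.74, with 0 of 7 genes called by limma between 6 and 3 months and 0 at an unadjusted p under 0.05.

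Most genes of the osteoblast and chondrocyte lists were lower at 6 than at 3 months. Of 9 osteoblast genes 9 were called lower at 6 than at 3 months (median -1.41), with list means of 9.64 to 10.22 at 3 months and 7.65 to 9.32 at 6 months. Of 6 osteocyte genes 3 were called lower, Dmp1, Pdpn and Phex, and 1 higher, Sost at 0.83 (adjusted p = 0.0353), the Wnt inhibitor of osteocytes. Of 12 chondrocyte genes 8 were called lower (median -1.88). Of 12 adipocyte genes 2 were called higher, Slc2a4 (1.33), a glucose carrier of fat and muscle that responds to insulin, and Cd36 (1.06). In limma 0 genes of the neutrophil, B cell, erythroid and endothelial lists were called in this comparison, with 3 of 10, 1 of 6, 0 of 4 and 4 of 6 at an unadjusted p under 0.05. What part the shares of bone, cartilage and muscle in the dissected samples have in the members' age differences was not tested.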

How the data were processed

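Total RNA of bone was measured on 24 arrays of 8 groups. The deposited table holds log2 values, the base being inferred from their range of 0.09 to 13.7, and the submitters' processing notes name a single tool, MAS5, with no version. How background was corrected and arrays were scaled is not given in the sources used here. Array medians lay between 3.55 and 3.64, and no detection calls were used. Of 41034 rows, 23521 had 1 symbol in the platform annotation, 1814 several and 15699 none, leaving 22180 genes, each at its row with the highest mean.

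limma 3.58.1 in R 4.3.3 (lmFit, eBayes) was fitted to all genes and arrays with a term per group and per code prefix, two-sided, with Benjamini-Hochberg adjustment over all genes and calls at an adjusted p under 0.05. The fit was tested on simulated data with noise drawn independently for each gene. That test cannot show how counts behave for genes that vary as a block, as the members did. The number of arrays limits the precision. Figures were drawn with matplotlib 3.10.9.

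The members, their roles and all lists were chosen with earlier results of these data known. Named were the 10 members with the highest difference between 6 and 3 months, those with the lowest adjusted p or no call, in each role the widest and narrowest over arrays, at most 4 called genes of other lists, and the 10 most correlated outside genes. Other members shown by level were chosen after their values were seen.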

Additional observations from a re-analysis of the deposited data

How the results depend on the processing

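Within the alternatives run, the differences of 6, 12 and 18 months from 3 months stayed above 0 in the members' mean. How many members passed did not hold. For 6 against 3 months (37 called) the count was 9 without both 3-month replicate 1 arrays, 0 without the 4 arrays with hepatocyte genes and 0 when the prefix term was left out as well. For 12 against 3 months (36) it was 0 with no prefix term, 21 with every row tested, 0 in a fit of the compared groups only, 1 without the 3-month replicate 1 arrays and 0 without the 4 arrays and the prefix term, and the mean difference of 3.34 became 1.69 and 1.62 in the first and last of these. For 18 against 3 months (37) the count was 8 with no prefix term, 5 without the 3-month replicate 1 arrays and 3 without the 4 arrays and the prefix term. Within wild type, 6 against 3 months (0 called) gave 6 with array weights and 1 in a fit of the compared groups only. The commonest prefix holds 1 wild-type array at 6 months, replicate 2, which is in the set of 4, so its count is left out. The transgenic count (0) was 1 in the commonest prefix, where both transgenic 6-month arrays belong to the set of 4. The transgenic mean of 2.24 became 0.79 without the 4 arrays.

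For 18 against 3 months in wild type (9) the count was 0 with no prefix term, 23 in the commonest prefix, 1 with every row tested, 5 with trended robust variance, 31 with array weights, 16 in the compared groups only, 0 without the 3-month replicate 1 arrays, 20 without the 4 arrays, and 0 without these and the prefix term. In transgenic bone (2) these settings gave 0, 1, 0, 2, 4, 0, 0, 9 and 0. The genotype mean at 12 months (-1.23) was 0.28 with no prefix term and 0.15 without the 4 arrays as well. The mean between 12 and 6 months (0.75) was -0.97 with no prefix term, 2.68 without the 4 arrays and -0.70 without both. The cause of these shifts was not tested.

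Same-numbered samples of both genotypes were not taken as pairs, since the correlation of their deviations was over 0.1 in 8 of 12 pairs and not in all (-0.30 to 0.29), with 7 highest for the own number. They share more than a number in part, since 9 of 12 have the same prefix, with code numbers that follow each other. In 10 of 12 the members' mean deviates in the same direction. The labels do not say whether these samples pair animals. With the replicate block the counts were 37 (6 against 3 months), 0 (12 against 3), 11 (18 against 3), 0 in wild type and 0 in transgenic bone (18 against 3). With the block and no prefix term the counts for 12 against 3 months, and for 18 against 3 in wild type and in transgenic bone, were 4, 1 and 0. The means then were 0.28 for genotype at 12 months, -0.97 for 12 against 6 months and 1.69 for 12 against 3 months.

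Leaving out 1 array at a time, the counts ran from 3 to 38 (6 against 3 months), 8 to 39 (12 against 3) and 23 to 38 (18 against 3), with means of 2.23 to 2.99, 2.82 to 3.84 and 2.63 to 3.42. In wild type they ran from 0 to 0 (6 against 3; mean 2.22 to 3.41) and 0 to 23 (18 against 3; 2.48 to 3.81), in transgenic bone from 0 to 1 (1.41 to 2.88) and 0 to 3 (2.06 to 3.47). Genotype counts stayed at 0, with means of -0.04 to 1.52, -0.51 to 0.71, -2.24 to -0.55 and -0.37 to 0.65 at 3, 6, 12 and 18 months. Means ran from 0.41 to 1.26 for 12 against 6 months, -0.70 to 0.43 for 18 against 12 and -1.14 to 0.42 for the difference between genotypes. For Acta1, Myh4, Myh7, Xirp1 and Cacng1, 0 of 345 values under an alternative reversed, 59 lost and 5 gained the call. The commonest prefix alone could not be fitted at 12 months, where wild type has no array of it. The absence of detection calls limits statements on low levels.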

Other observations

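At 18 against 3 months over both genotypes, of 9 neuromuscular junction genes 5 were called higher and 1 lower (median difference 0.94), and of 9 regulatory and satellite cell genes 3 were called higher (median 0.22). Of 21 further sarcomere and triad genes 20 were called higher (median 2.14). None of the 8 cardiac genes or 14 hepatocyte genes was called by limma in that comparison, with 1 and 0 at an unadjusted p under 0.05 and medians of -0.09 and -0.14. Of 12 adipocyte genes 12 were called higher (median 1.76), and their list mean had a within-group r of 0.32 with the members' mean. Whether the lists differed between the age comparisons was not tested.

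Some genes outside the members followed the gap between slow-fibre and fast-fibre means within groups, and they were chosen after their values were seen. Pearson's r with the gap was 0.62 for Myl2 (rho 0.56), 0.62 for Myh6 (rho 0.67) and 0.63 for Tnnt2 (rho 0.69), and it was 0.55, 0.50 and 0.50 without the 2 arrays farthest from the median gap. Over the 20 arrays outside the set with hepatocyte genes it was 0.42, 0.56 and 0.72. Myl2 and Myh6 are myosins of slow or cardiac muscle, and Tnnt2 is the cardiac troponin T. Slc27a2, a fatty acid transporter of liver and kidney, had an r of 0.62 (rho 0.66), of 0.47 without 2 arrays and of 0.63 over the 20 arrays. Further genes that followed the gap over all arrays had a lower r over the 20 arrays than those above. It went from 0.58 to 0.31 for Myl6b, from 0.54 to 0.26 for Sln and from 0.53 to 0.27 for Pln. For Serpinc1 it went from 0.56 to 0.37, for Lgi1 from 0.52 to 0.39 and for Btbd35f1 from 0.58 to 0.39.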
